A study of Mus musculus with 12 samples.

Results

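The transcripts of 8 genes that shape mitogen-activated protein kinase (MAPK) signalling were followed in bone marrow-derived macrophages (BMDM) with and without the DNA sensor cGAS. The genes were looked up by symbol, and all 8 were found among the 38739 gene symbols of the expression table. They are the dual-specificity phosphatases Dusp2, Dusp4, Dusp6 and Dusp16, the stress genes Gadd45a and Gadd45b, the kinase Map2k3 and the kinase Mapkapk2. All 8 also passed the filter on low values, which kept 11887 genes.

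RNA was sequenced from 12 samples in 4 groups of 3. BMDM, cells grown from marrow, came from wild-type (WT) mice or from mice with a whole-body knockout of cGAS (cGAS-/-), and were either left untreated in medium (UT) or activated with lipopolysaccharide (LPS) of E. coli. Per the study's methods the mice were male C57BL/6J animals aged 8 weeks. The labels give 100 ng/mL LPS for 1 h, whereas the study's methods give a higher dose and a longer time, so the exposure behind the LPS groups is uncertain. The study describes the samples of a group as technical replicates, and the labels do not say that they came from separate mice or cultures. All p-values therefore measure only the spread between these samples and not between animals.

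Toll-like receptor 4 senses LPS and passes the signal through MAPK kinase kinases and MAPK kinases to ERK, JNK and p38, which switch on cytokine genes in macrophages. The same kinases induce their own brakes, the dual-specificity phosphatases, which remove the activating phosphates. MAP2K3 is a kinase that activates p38, and MAPKAPK2 is the kinase downstream of p38 that stabilises cytokine transcripts. The GADD45 proteins are small stress-induced partners of MAP3K4, a kinase upstream of p38 and JNK.

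On GRCm39, Dusp2 lies at chr2:127177957-127180296, Dusp4 at chr8:35274442-35287048, Dusp6 at chr10:99086564-99103361 and Dusp16 at chr6:134692431-134784241. Gadd45a lies at chr6:67012070-67014441, Gadd45b at chr10:80764523-80768038, Map2k3 at chr11:60821766-60843637 and Mapkapk2 at chr1:130981423-131025593. All are annotated as protein-coding genes. Dusp16, Gadd45a and Mapkapk2 are on the minus strand. Non-coding genes on the opposite strand share 55.8% of the exonic bases of Gadd45a (E230016M11Rik), 28.9% of those of Dusp2 (Gm74572) and 20.2% of those of Dusp6 (Gm56965). The library kit was stranded, but whether strand was used in the quantification is not given in the sources used here, so the values of these 3 genes may hold reads of their antisense partners.

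RefSeq promoter sequences on GRCm39, from 250 bases before to 50 bases after the transcription start, were found for 7 of the 8 genes, all but Dusp4. The motifs were searched on both strands. AP-1 (TGANTCA, in 7.81% of 32851 mouse promoters of this length), the full cAMP response element (TGACGTCA, 1.79%), NF-kB (8.46%) and the SRF CArG box (1.63%) had no match in any of the 7. The letters TGACG, which form part of the full element, were in 3 of the 7 and in 20.8% of all promoters, and TATAAA was in 1 of the 7 and in 13.6% of all. The sequences of the 4 promoters with a match are shown from 100 bases before to 20 bases after the start, 5′ to 3′ on the gene's strand, with the match in capitals. Dusp2, Dusp16 and Mapkapk2 each hold TGACG or its reverse complement CGTCA, at different distances from the start. The promoter sequences searched for Dusp6, Dusp16, Gadd45b and Map2k3 lie wholly inside the annotated genes. The outermost annotated starts of these genes were therefore not searched. Gadd45b holds TATAAA. A match describes letters and does not show that a factor binds there.
Dusp2 (chr2:127177979-127178098, plus strand): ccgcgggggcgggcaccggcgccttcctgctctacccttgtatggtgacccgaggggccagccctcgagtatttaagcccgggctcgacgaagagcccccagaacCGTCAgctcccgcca
Dusp16 (chr6:134769572-134769691, minus strand): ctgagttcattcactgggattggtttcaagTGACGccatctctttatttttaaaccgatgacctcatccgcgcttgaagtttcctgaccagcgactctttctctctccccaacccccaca
Mapkapk2 (chr1:131025561-131025680, minus strand): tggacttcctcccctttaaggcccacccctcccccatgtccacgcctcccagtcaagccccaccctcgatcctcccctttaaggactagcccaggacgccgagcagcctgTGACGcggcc
Gadd45b (chr10:80765825-80765944, plus strand): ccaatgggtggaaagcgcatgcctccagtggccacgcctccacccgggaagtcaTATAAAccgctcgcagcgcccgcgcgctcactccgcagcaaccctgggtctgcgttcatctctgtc

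One library stood apart. In WT LPS replicate 3 the values summed to 709802 TPM (transcript abundance, scaled by the total of a sample) against 447189 to 503156 in the other 11 samples, the ferritin pseudogene Fth-ps3 took 31.7% of the sum against 6.24 to 17.7%, and protein-coding genes took 18.5% against 39.7 to 54.4%. This library had the lowest value of all 12 for 6 of the 8 genes (75.0%) and for 48.3% of all genes tested. The fold changes of the 8 genes that rest on WT LPS, and the counts of calls, are therefore given with and without it. Counts of other comparisons are included because all groups share one estimate of the spread. Cgas read 1.19 to 3.25 TPM in WT samples and 0.0703 to 0.291 TPM in cGAS-/- samples. Of 16 listed macrophage markers 12 were in the table, none was at 0 in a whole group, and they summed to 19966 to 36211 TPM, highest in cGAS-/- LPS. Most of the sum was Lyz2 (15701 to 33426 TPM). Some other macrophage markers were lower with LPS, such as Cd68 at 973 to 1042 TPM in WT UT and 153 to 506 TPM in WT LPS, Mrc1 at 23.5 to 25.6 TPM in cGAS-/- UT and 0.857 to 1.10 TPM in cGAS-/- LPS, and Cx3cr1 at 5.93 to 6.69 TPM in WT UT and 0.157 to 0.872 TPM in WT LPS. Others were higher, with Fcgr1 at 64.5 to 73.4 TPM in WT UT and 176 to 720 TPM in WT LPS, and at 61.6 to 63.8 TPM in cGAS-/- UT and 260 to 294 TPM in cGAS-/- LPS. Itgam (43.3 to 45.4 TPM untreated and 141 to 144 TPM with LPS) and Spi1 (133 to 140 and 173 to 188 TPM) were higher with LPS in cGAS-/- and overlapped the untreated samples in WT. Neutrophil markers summed to 85.8 to 403 TPM (10 of 12 in the table, with Elane at 0 in cGAS-/- UT), dendritic cell markers to 1.01 to 2.23 TPM (6 of 6), erythroid markers to 1.56 to 37.4 TPM (6 of 7) and T and NK cell markers to at most 0.722 TPM (7 of 7). The B cell sums are given with Gadd45a. The part of these cell types and of the library in the results below was not tested. In bulk RNA, fewer cells of a type and less RNA per cell cannot be told apart.

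Gene calls came from limma on log2(TPM + 1), with an adjusted p under 0.05 over 11887 genes. With LPS in cGAS-/- BMDM, 5 of the 8 genes passed, against 13.8% of all genes tested. Dusp2, Dusp16 and Mapkapk2 rose (4.76% of all genes rose), and Dusp4 and Map2k3 fell (9.06% fell). With LPS in WT BMDM, 3 of the 8 passed, against 27.6% of all genes, and all 3 (Dusp4, Gadd45a and Map2k3) fell, as did 23.3% of all genes. Neither genotype comparison called any of the 8 genes, against 1.83% of all genes without LPS and 2.36% with LPS. Limma called none for the difference of the LPS effects (cGAS-/- minus WT) either, against 0.900% of all genes, and 3 of the 8 were under 0.05 before adjustment, against 11.1% of genes. Leaving out WT LPS replicate 3 gave 7 of 8 (31.2% of genes) with LPS in cGAS-/-, 5 (35.2%) with LPS in WT, 2 (5.50%) between untreated genotypes, 1 (8.27%) between LPS genotypes and 1 (4.56%) for the difference of effects.

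**Figure D1:**
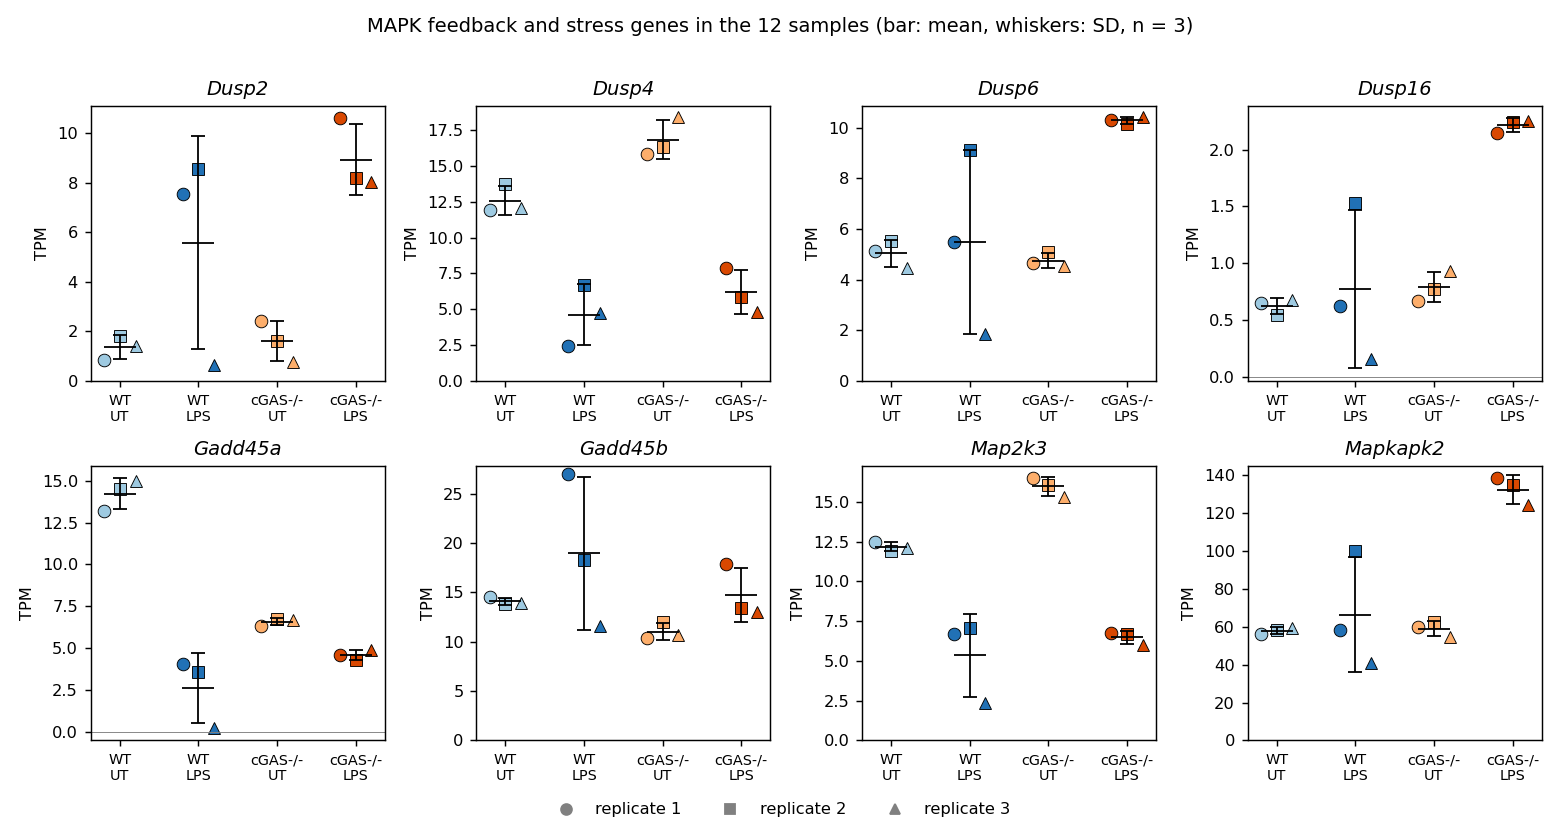
Values of the 8 genes in TPM (y axis, starting at 0) in each of the 12 samples, by group, with markers for the replicate number, a bar for the mean and whiskers for the SD (n = 3). The 3 cGAS-/- LPS samples of Dusp6, Dusp16 and Mapkapk2 lie above all other samples, and WT LPS replicate 3 is the lowest sample of 6 genes.

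Dusp2, a nuclear phosphatase of activated immune cells, was at 0.857, 1.80 and 1.42 TPM in WT UT replicates 1 to 3 and at 7.56, 8.57 and 0.636 TPM in WT LPS. It was at 2.40, 1.63 and 0.783 TPM in cGAS-/- UT and at 10.6, 8.19 and 8.03 TPM in cGAS-/- LPS. The cGAS-/- LPS samples were all above the untreated ones, while the WT LPS samples overlapped the WT UT samples through replicate 3 alone. The mean went from 1.60 ± 0.809 (SD, n = 3) to 8.94 ± 1.44 TPM with LPS in cGAS-/-, and from 1.36 ± 0.476 to 5.59 ± 4.32 TPM in WT. In limma this was a log2 fold change of 1.97 (SE 0.56, adjusted p = 0.0381) in cGAS-/- and of 1.14 (SE 0.56, adjusted p = 0.143) in WT. Without WT LPS replicate 3 the limma values were 1.97 (adjusted p = 1.66e-04) in cGAS-/- and 1.96 (adjusted p = 4.17e-04) in WT, and the mean of WT LPS replicates 1 and 2 (8.06 TPM) was 5.93 times that of WT UT. The cGAS-/- call was lost in 12 of 24 alternatives with the direction kept (limma, adjusted p up to 0.140). In WT the value missed the threshold at the settings used throughout and passed without WT LPS replicate 3. With all 12 samples it also passed with quantile normalization (limma, 1.61, adjusted p = 0.0261) and sample weights (1.73, adjusted p = 0.0495). The 2 genotypes' LPS values, 0.95 apart on the log2 scale with all samples, were 0.13 apart without WT LPS replicate 3.

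Dusp4, another nuclear phosphatase acting on ERK and JNK, had the opposite course. It was at 11.96, 13.7 and 12.1 TPM in WT UT and at 2.44, 6.68 and 4.74 TPM in WT LPS. It was at 15.8, 16.3 and 18.4 TPM in cGAS-/- UT and at 7.88, 5.89 and 4.82 TPM in cGAS-/- LPS. No LPS sample of either genotype reached an untreated one, and the untreated cGAS-/- samples all lay above the untreated WT samples. The limma log2 fold change with LPS was -1.35 (SE 0.29, adjusted p = 0.00690) in WT and -1.33 (SE 0.29, adjusted p = 0.0105) in cGAS-/-, and without WT LPS replicate 3 it was -1.40 (adjusted p = 0.00528) in WT. Of the WT LPS samples, replicate 3 was not the lowest here. With TMM factors as the scaling the WT value was -0.74 (adjusted p = 0.123, limma), and with the 6 WT samples alone it was -1.35 (adjusted p = 0.0896, limma).

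Dusp6, the cytoplasmic phosphatase that inactivates ERK, was at 5.12, 5.52 and 4.48 TPM in WT UT and at 5.47, 9.11 and 1.86 TPM in WT LPS. It was at 4.64, 5.09 and 4.52 TPM in cGAS-/- UT and at 10.3, 10.2 and 10.4 TPM in cGAS-/- LPS. The cGAS-/- LPS samples were tightly grouped above every other sample, and the WT LPS samples lay on both sides of the untreated ones. The means with LPS were 10.3 ± 0.132 in cGAS-/- and 5.48 ± 3.63 TPM in WT (SD, n = 3). Limma gave 0.97 (SE 0.36, adjusted p = 0.111) with LPS in cGAS-/-, which did not pass, and 0.97 (adjusted p = 0.00103) without WT LPS replicate 3. In WT the limma value was -0.07 (SE 0.36, adjusted p = 0.891), and it turned to 0.43 (adjusted p = 0.0860) without WT LPS replicate 3 and to 0.47 with TMM factors as the scaling.

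Dusp16, a phosphatase for JNK and p38, was near or under 1 TPM in untreated cells, with 0.654, 0.550 and 0.676 TPM in WT UT and 0.674, 0.778 and 0.935 TPM in cGAS-/- UT. With LPS it was at 0.626, 1.53 and 0.165 TPM in WT and at 2.15, 2.25 and 2.25 TPM in cGAS-/-. The cGAS-/- LPS samples were above all others, and the WT LPS samples overlapped the untreated ones. The mean with LPS was 2.21 ± 0.0578 TPM in cGAS-/- against 0.796 ± 0.131 TPM untreated, a limma log2 fold change of 0.84 (SE 0.24, adjusted p = 0.0379). This call was lost in 13 of 23 alternatives with the direction kept, among them a common total (limma, adjusted p = 0.103), a pseudocount of 0.1 (0.146), no filter (0.0967) and the replicate number as a block (0.0600). Between genotypes with LPS, limma gave 0.93 (SE 0.24, adjusted p = 0.0803), and 0.66 (adjusted p = 0.0520) without WT LPS replicate 3. In WT the limma value was 0.05 (adjusted p = 0.879), 0.32 (adjusted p = 0.191) without that library and -0.07 under scaling to a common total. Among the alternatives it passed only with quantile normalization, at 0.50 (limma, adjusted p = 0.0294). The log2(TPM + 1) scale understates changes at this level.

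Map2k3, the p38-activating kinase, was at 12.5, 11.9 and 12.1 TPM in WT UT and at 6.70, 7.05 and 2.35 TPM in WT LPS. It was at 16.5, 16.1 and 15.3 TPM in cGAS-/- UT and at 6.74, 6.70 and 6.01 TPM in cGAS-/- LPS. No LPS sample overlapped an untreated sample of its genotype. The limma log2 fold change was -1.15 (SE 0.30, adjusted p = 0.0176) in WT and -1.18 (SE 0.30, adjusted p = 0.0239) in cGAS-/-, and without WT LPS replicate 3 the values were -0.74 (adjusted p = 3.77e-04) and -1.18 (adjusted p = 6.04e-06). The WT call was lost at nearly the same fold when any 1 WT UT sample was left out (limma, adjusted p = 0.0543 to 0.0582) and with the 6 WT samples alone (adjusted p = 0.153), and the cGAS-/- call was lost in 7 of 24 alternatives (adjusted p up to 0.0920). The untreated samples were ordered by genotype, 16.0 ± 0.602 in cGAS-/- against 12.2 ± 0.284 TPM in WT, a log2 difference of 0.37 that passed limma only without WT LPS replicate 3 (adjusted p = 0.0465), with sample weights and with the 6 untreated samples alone.

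Mapkapk2, the kinase downstream of p38, was at 56.1, 58.3 and 59.4 TPM in WT UT and at 59.8, 62.5 and 54.5 TPM in cGAS-/- UT. With LPS it was at 58.3, 100 and 40.7 TPM in WT and at 138, 135 and 124 TPM in cGAS-/-. All 3 cGAS-/- LPS samples were above every WT LPS sample, which ranged around the untreated level. The means with LPS were 132 ± 7.44 against 66.4 ± 30.5 TPM (SD, n = 3). The rise in cGAS-/- was 1.15 on the log2 scale (limma, SE 0.30, adjusted p = 0.0236), and 5.35e-04 was its adjusted p in limma without WT LPS replicate 3. The call was lost in 7 of 24 alternatives, with adjusted p = 0.106 in limma as the highest. In WT the limma value was 0.10 (adjusted p = 0.817), and 0.39 (adjusted p = 0.128) without that library. The sign turned to -0.19 with a common total, while TMM factors gave 0.79 (adjusted p = 0.00468). Between genotypes with LPS limma gave 1.08 (SE 0.30, adjusted p = 0.101), and 0.78 (adjusted p = 0.0315) without that library.

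Gadd45a, a DNA damage-inducible gene, was the gene of the 8 with the largest fall with LPS in WT. It was at 13.2, 14.5 and 15.0 TPM in WT UT and at 4.08, 3.57 and 0.246 TPM in WT LPS. It was at 6.33, 6.75 and 6.70 TPM in cGAS-/- UT and at 4.58, 4.30 and 4.90 TPM in cGAS-/- LPS. The 4 groups did not overlap, in the order WT LPS, cGAS-/- LPS, cGAS-/- UT and WT UT. The limma log2 fold change with LPS in WT was -2.31 (SE 0.43, adjusted p = 0.00290), and -1.66 (adjusted p = 3.65e-06) without WT LPS replicate 3. In cGAS-/- it was -0.44 (SE 0.43, adjusted p = 0.607), and -0.44 (adjusted p = 0.00739) without that library. Between untreated genotypes limma gave -1.0 (SE 0.43, adjusted p = 0.537), and -1.0 (adjusted p = 2.97e-04) without it. The difference of LPS effects was 1.87 (limma, SE 0.60, adjusted p = 0.258) with all samples, and 1.22 (adjusted p = 0.00188) without that library. Summed B cell markers (6 of 7 in the table, none at 0 in a whole group) were also highest in WT UT, at 108 to 134 TPM in WT UT, 30.6 to 44.9 TPM in WT LPS, 19.9 to 28.5 TPM in cGAS-/- UT and 3.04 to 8.84 TPM in cGAS-/- LPS, and their part in the Gadd45a values was not tested.

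Gadd45b, a stress and NF-kB-inducible relative, was at 14.5, 13.9 and 13.95 TPM in WT UT and at 27.0, 18.3 and 11.6 TPM in WT LPS. It was at 10.4, 11.99 and 10.7 TPM in cGAS-/- UT and at 17.8, 13.4 and 12.98 TPM in cGAS-/- LPS. The untreated cGAS-/- samples were the lowest group, all of them under the untreated WT samples, and only the cGAS-/- LPS samples cleared their untreated group. Limma gave 0.38 (SE 0.28, adjusted p = 0.478) with LPS in cGAS-/- and 0.33 (SE 0.28, adjusted p = 0.397) in WT. Neither passed with all samples at the settings used throughout. The WT value passed in limma at 0.62 (adjusted p = 0.0233) without WT LPS replicate 3. With all samples it passed at 0.99 (adjusted p = 0.0132) with TMM factors and at 0.71 (0.0435) with quantile normalization. The cGAS-/- value passed at 0.38 (limma, adjusted p = 0.0211) with sample weights. Between untreated genotypes the Gadd45b value of -0.33 passed only with the 6 untreated samples alone (limma, adjusted p = 0.0369).

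**Figure D2:**
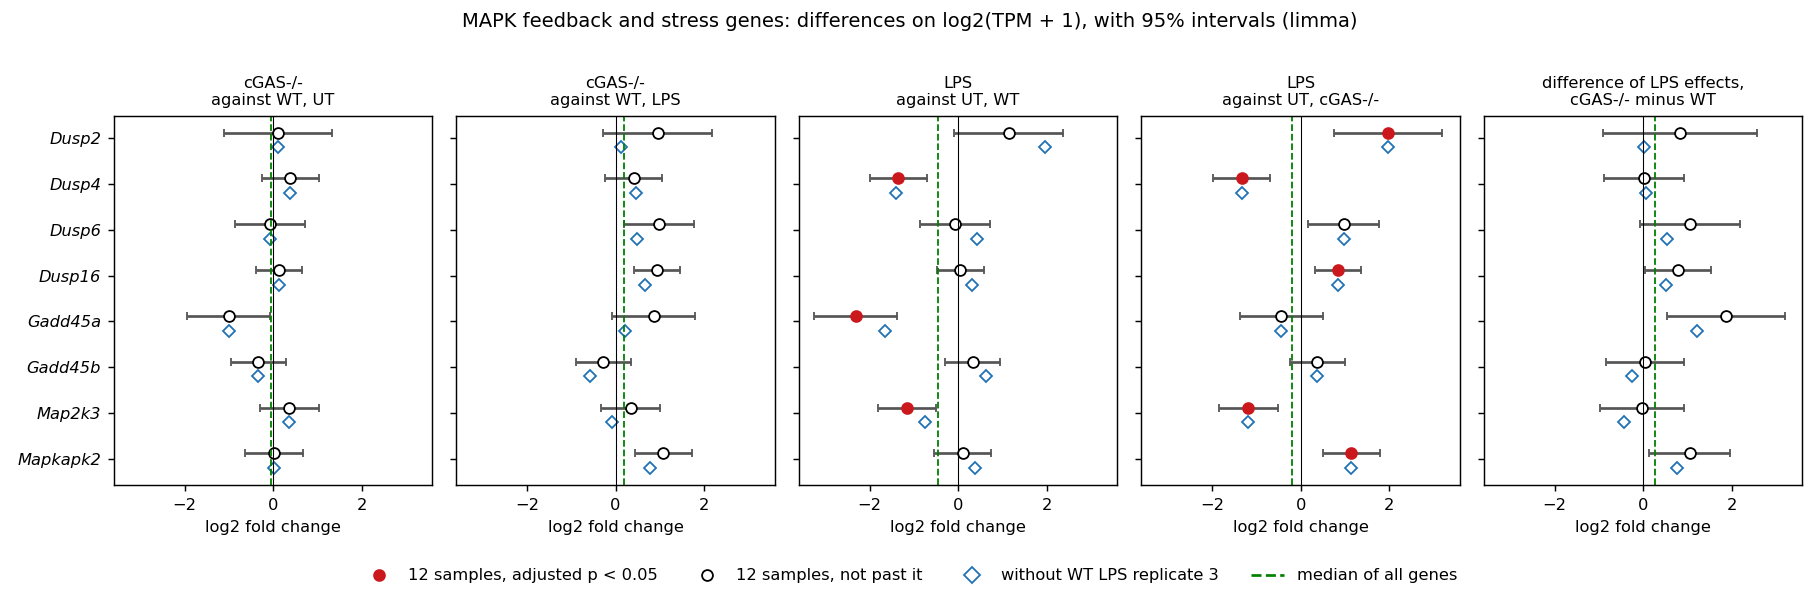
Log2 fold change of the 8 genes on the log2(TPM + 1) scale in each comparison (x axis), from limma with 12 samples (circles, filled where the adjusted p was under 0.05, with 95% intervals) and without WT LPS replicate 3 (diamonds). The dashed line is the median over all genes tested. Dusp4 and Map2k3 lie below 0 with LPS in both genotypes, and Dusp2 moves from 1.14 to 1.96 in WT without that library.

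Across the LPS comparison in cGAS-/-, all 8 genes were separate between the groups, as were 55.7% of all genes tested. In WT this held for Dusp4, Gadd45a and Map2k3, 3 of the 8 against 38.2% of all genes. Dusp2 and Gadd45b overlapped in WT through WT LPS replicate 3 alone, and the share of all genes that did so was not counted. The median log2 fold change over all genes was -0.20 in cGAS-/- and -0.46 in WT, so values in both are read against a shift of all genes. At a log2 fold change beyond 2 as well, none of the 8 passed in cGAS-/- (3.50% of genes), and Gadd45a alone passed in WT (4.32%). Without WT LPS replicate 3 the Gadd45a value in WT was -1.66, so this call was lost. Leaving out any 1 of the 6 cGAS-/- samples left at most 1 of the 5 calls (8.60 to 9.20% of all genes passed), and leaving out any WT UT sample lost those of Dusp2 and Dusp16 (11.9 to 12.1%). Scaling to a common total, where 11.9% of genes passed, left the call of Dusp4 alone.

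Between genotypes without LPS, 4 of the 8 were separate (30.5% of all genes). Dusp4 and Map2k3 were higher and Gadd45a and Gadd45b were lower in cGAS-/-, with log2 differences of 0.39, 0.37, -1.0 and -0.33. Limma called none of these in the 12-sample fit, and 1 of the 8 (Gadd45a, unadjusted p = 0.0387) was under 0.05 before adjustment, against 8.08% of all genes. In the fit of the 6 untreated samples alone, limma called these same 4 (11.8% of genes), at adjusted p = 0.0366 for Dusp4, 0.0135 for Map2k3, 6.60e-04 for Gadd45a and 0.0369 for Gadd45b.

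Between genotypes with LPS, Dusp6, Dusp16, Gadd45a and Mapkapk2 were higher in every cGAS-/- sample than in any WT sample, 4 of the 8 against 12.6% of genes separate in that direction. Limma called none of the 8 with 12 samples at the settings used throughout. With other settings on the 12 samples it called Dusp16 with TMM factors, quantile normalization, a pseudocount of 5 and protein-coding genes only (adjusted p = 0.0138 to 0.0446), and Mapkapk2 with TMM factors, quantile normalization and sample weights (adjusted p = 0.0193 to 0.0331). Of the 8, 3 were under 0.05 before adjustment, against 18.8% of all genes. Mapkapk2 passed limma without WT LPS replicate 3 (adjusted p = 0.0315), and Dusp6 (adjusted p = 0.00837), Dusp16 (0.00158) and Mapkapk2 (0.00165) passed without WT LPS replicate 2 (28.5% of genes passed), which was the highest WT LPS sample of all 3. For the other genes the limma value between LPS genotypes, with all samples and without WT LPS replicate 3, was 0.98 (adjusted p = 0.198) and 0.48 (0.133) for Dusp6, 0.86 (0.296) and 0.21 (0.290) for Gadd45a, 0.95 (0.364) and 0.13 (0.825) for Dusp2, and 0.41 (0.442) and 0.46 (0.390) for Dusp4. Gadd45b was at -0.28 (limma, adjusted p = 0.585) and -0.58 (0.0848), and Map2k3 turned from 0.34 (0.542) to -0.07 (0.707). The median over all genes was 0.20 with all samples, 0.04 without replicate 3 and 0.38 without replicate 2. The difference of LPS effects was 1.06 for Mapkapk2 (limma, adjusted p = 0.376), 1.05 for Dusp6 (adjusted p = 0.495) and 0.79 for Dusp16 (adjusted p = 0.422), none of which passed. Without WT LPS replicate 3 these were 0.76 (adjusted p = 0.142), 0.55 (0.269) and 0.52 (0.305) in limma. The differences of Dusp2 (0.84, or 0.01 without that library), Dusp4 (0.02 or 0.07), Gadd45b (0.05 or -0.25) and Map2k3 (-0.03 or -0.44) did not pass in limma either way, with adjusted p = 0.113 as the lowest of these. Without WT LPS replicate 2, Dusp6, Dusp16, Gadd45a and Mapkapk2 passed with limma (adjusted p = 0.0392, 0.0162, 0.0477 and 0.0130), as did 13.1% of all genes, and the median over all genes was 0.45 against 0.27 with all samples.

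The rest of the MAPK pathway was taken from lists by role, with the 8 genes left out. Of 109 listed genes, 72 were in the table and 65 were tested. With LPS in WT, limma called 22 of the 65 lower and none higher (median -0.62, against -0.46 for all genes), where 23.3% of all genes were lower and 4.31% higher. With LPS in cGAS-/- it called 8 lower and 1 higher (median -0.27, against -0.20), where 9.06% of all genes were lower and 4.76% higher. Without WT LPS replicate 3 the counts were 25 lower and 2 higher in WT, with 20 of the 22 kept (26.9% of all genes lower and 8.30% higher), and 21 lower and 6 higher in cGAS-/-, with all 8 and the 1 kept (21.9% and 9.27%). Between untreated genotypes none passed with 12 samples, and without that library 2 were higher, Gadd45g (limma, 1.08, adjusted p = 0.00319) and Map3k9 (0.66, adjusted p = 0.0127), where 1.22% of all genes were higher. Between LPS genotypes 1 was higher with 12 samples (1.36% of all genes), and 3 were higher and 1 lower without that library (3.87% and 4.39% of all genes).

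By role, 4 of the 7 other MAPK phosphatases fell with LPS in WT and 3 in cGAS-/-, and none rose, with the same counts without WT LPS replicate 3. The counts by role with 12 samples are read against the 23.3% of all genes that fell in WT and the 9.06% in cGAS-/-, and those without that library against 26.9% and 21.9%. Dusp3, an ERK and JNK phosphatase, went from 16.6 ± 1.62 to 4.39 ± 2.68 TPM in WT (limma log2 fold change -1.84, adjusted p = 0.00227) and from 18.8 ± 0.192 to 4.02 ± 0.395 TPM in cGAS-/- (-1.99, adjusted p = 0.00181), and in WT the value was -1.42 (adjusted p = 1.92e-04) without that library. Of the MAPK phosphatases tested, Dusp2 and Dusp16 rose in cGAS-/-, joined by Dusp6 without WT LPS replicate 3 and under some other alternatives. Dusp1, Dusp5 and Dusp9 had no symbol in the expression table, so whether they changed is unknown. Of the kinases, 7 of the 11 MAP3K, RAF and TAK1 partner genes fell in WT (6 without that library) and 2 in cGAS-/-. Map3k9, a mixed-lineage kinase, fell from 2.08 ± 0.160 to 0.127 ± 0.152 TPM in WT (limma, -1.46, adjusted p = 9.92e-05, or -1.38 without that library) and from 3.87 ± 0.110 to 0.204 ± 0.127 TPM in cGAS-/- (adjusted p = 1.06e-05). Of 6 other MAPK kinases none passed in either genotype, and without WT LPS replicate 3 1 of them passed as lower in WT, while cGAS-/- had 1 that rose and 1 that fell. Of 5 MAP kinases, 2 fell in WT, among them Mapk3 (ERK1) at a limma log2 fold change of -1.47 (adjusted p = 0.0488). Without that library Mapk3 was at -0.70 (limma, adjusted p = 4.70e-04) in WT and also passed in cGAS-/- at -0.44 (adjusted p = 0.00372). Of 6 other MAPK-activated kinases, 2 fell in WT and none in cGAS-/- with 12 samples, and 3 and 2 fell without that library.

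Gadd45g, the third GADD45 gene, was at 9.86 ± 2.31 TPM in WT UT, 7.70 ± 6.25 in WT LPS, 21.7 ± 1.12 in cGAS-/- UT and 2.24 ± 0.408 in cGAS-/- LPS. It fell with LPS in cGAS-/- (limma log2 fold change -2.82, adjusted p = 0.0131), and its difference of LPS effects was -2.01 (adjusted p = 0.451), or -3.02 (adjusted p = 1.63e-04) without WT LPS replicate 3. Of 15 immediate early targets, 3 fell and none rose in WT, and 1 fell and 1 rose in cGAS-/-. Without WT LPS replicate 3, 4 fell and 2 rose in WT, and 7 fell and 4 rose in cGAS-/- (8.30% and 9.27% of all genes rose). Phlda1 rose in cGAS-/- from 2.06 ± 0.246 to 11.1 ± 1.16 TPM (limma, 1.99, adjusted p = 0.0206). In WT its limma value was -0.24 (adjusted p = 0.729) with 12 samples and turned to 0.52 (adjusted p = 0.0253) without that library. Egr2 fell in both genotypes (limma, -1.64 in WT, adjusted p = 0.00470, or -1.30 without WT LPS replicate 3, and -1.45 in cGAS-/-, adjusted p = 0.0125). Fos fell in WT (limma, -1.92, adjusted p = 0.0120), at -1.26 (adjusted p = 9.56e-04) without that library, where it also passed in cGAS-/- at -1.16 (adjusted p = 7.58e-04). Map3k5, the stress kinase ASK1, was the list gene called higher in cGAS-/- with LPS when all 12 samples were fitted, at 1.57 ± 0.0743 against 0.342 ± 0.329 TPM (limma, 0.96, SE 0.18, adjusted p = 0.0212), and at 0.79 (adjusted p = 0.00758) without WT LPS replicate 3. Without that library Phlda1 (limma, 0.98, adjusted p = 0.00416) and Pebp1 (0.62, adjusted p = 0.0123) were also higher and Gadd45g was lower (-1.93, adjusted p = 1.75e-04). Of 7 scaffold genes 3 fell in WT and 1 in cGAS-/- (4 and 3 without that library, where 1 also rose in cGAS-/-), and of 7 Sprouty, SPRED and related feedback inhibitors 1 fell in WT, Pebp1, and none in cGAS-/- (1 and 1 without that library).

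**Figure D3:**
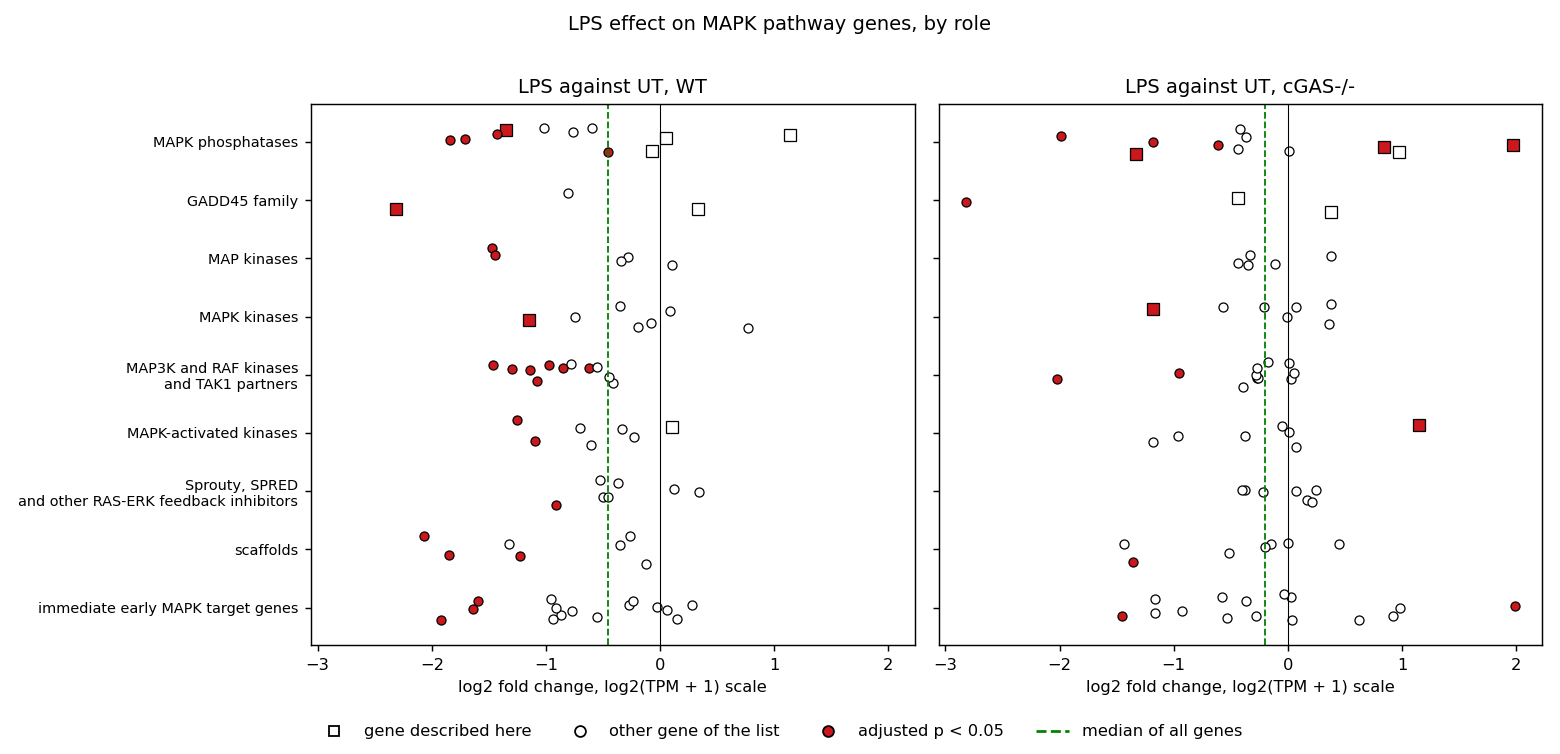
Log2 fold change with LPS in WT (left) and in cGAS-/- (right) of the tested genes of each MAPK list, by role, with squares for the 8 genes and circles for other list genes, filled where the limma adjusted p was under 0.05. The dashed line is the median of all genes. Dusp2, Dusp16 and Mapkapk2 are filled squares right of 0 in cGAS-/-, and Dusp4 and Map2k3 are filled squares left of 0 in both.

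The genes whose pattern was most like each of the 8 were found by the root mean square difference of log2(TPM + 1), centred on each gene's own mean, over the 12 samples and 8023 protein-coding genes. For Mapkapk2 the nearest were Fnbp1l (0.12) and Tnip3 (0.13), against a median of 0.70 over genes. For Dusp16 they were Cry1 (0.09) and Slx4ip (0.09), and for Dusp6 Def8 (0.12) and Nab1 (0.14). Tnip3 had the course of Mapkapk2, at 9.87 TPM in WT UT, 12.7 in WT LPS, 10.2 in cGAS-/- UT and 24.5 in cGAS-/- LPS. For Map2k3 the nearest were Epb41 and Dnajb4 (0.14 each), for Dusp4 Itgav and Hexa (0.21 each), for Gadd45a Serinc3 (0.23) and Adgre5 (0.25), for Gadd45b Nosip (0.16) and Tex30 (0.17), and for Dusp2 Vmp1 (0.26) and Cd52 (0.33). These likenesses are descriptions over samples that share libraries.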

How the data were processed

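RNA from 12 BMDM samples (4 groups of 3) was sequenced. Per the submitters' processing notes and the study's methods, reads were trimmed with fastp and handled with STAR and kallisto on GRCm39 (versions not given in the sources used here). The authors deposited one table in TPM. The values look like kallisto estimates averaged, not summed, for every symbol over its listed transcripts, which was inferred from the values themselves. Levels are therefore not compared between genes. Totals ranged from 447189 to 709802 TPM. The table holds no read counts, so depth is unknown. Of its symbols, 35599 matched GENCODE genes, all but 1 (on X) on chromosomes 1 to 13. The labels name neutrophils in the extraction step and the instruments differ between sources.

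limma 3.58.1 (R 4.3.3) was fitted on log2(TPM + 1) over 11887 genes, those with at least 1 TPM (after scaling each sample to a total of 1000000) in 3 of 12 samples, with a mean per group and Benjamini-Hochberg adjustment over all of them. It was tested on simulated data. The group means and the 5 comparisons used all 12 samples. The 8 genes, pathway lists and cell markers were chosen with earlier results of these data known. The 8 genes are all named, with up to 2 list genes per list and comparison that had the largest change among those called and separate between groups, and the 2 genes nearest each of the 8. Alternatives were other pseudocounts, filters, scalings (trimmed mean of M values, TMM; quantile; common total), sample weights, 6 samples only, a replicate block and leaving out each sample. Same-numbered samples did not deviate together (correlations -0.03 to 0.04), so the numbers were not used to pair samples. RefSeq promoters were placed on GRCm39 by exact match.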

Additional observations from a re-analysis of the deposited data

How the results depend on the processing

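Of 947 values of the 8 genes under the alternatives, 826 kept their direction and their side of the threshold. Depth is unknown, 3 samples a group limit precision, and WT LPS varied most.

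The number of the 8 genes called moved as follows. Between untreated genotypes it was 0, with 2 under sample weights (11.5% of all genes), 4 with the 6 samples alone (11.8%) and 0 to 2 when each sample was left out (0.752 to 5.50%). Between LPS genotypes it was 0, with 1 at a pseudocount of 5 (2.85% of all genes), with protein-coding genes only (2.65%) and with sample weights (2.49%), 2 with TMM factors (4.11%) and with quantile normalization (4.64%), and 0 to 3 with a sample left out (0.578 to 28.5%). For LPS in WT it was 3, with 1 at a log2 fold change beyond 2 (4.32%) and with the 6 samples alone (9.23%; Dusp4 and Map2k3 lost), 5 with quantile normalization (20.6%) and 2 to 5 with a sample left out (16.2 to 49.6%; 5 without WT LPS replicate 3). With TMM factors (20.0%) 2 were higher and 2 lower, and with quantile normalization 3 higher and 2 lower, against none and 3. For LPS in cGAS-/- it was 5, with 0 at a log2 fold change beyond 2 (3.50%), 3 at a pseudocount of 0.1 (11.0%) and with no filter (5.79%), 1 with a common total (11.9%), 8 with sample weights (48.3% of all genes) and 0 to 7 with a sample left out (1 without each cGAS-/- UT replicate, 8.95 to 9.20% of all genes, 1, 1 and 0 without each cGAS-/- LPS replicate, 8.60 to 8.93%, and 3 without each WT UT replicate, 11.9 to 12.1%). For the difference of LPS effects it was 0, with 1 under sample weights (2.46%) and 0 to 4 with a sample left out (0.328 to 13.1%). With the replicate block the counts were 0, 0, 3, 4 and 0 in that order (1.43, 1.51, 24.9, 11.9 and 0.454% of all genes), and Dusp16 was the call lost with LPS in cGAS-/- (limma, adjusted p = 0.0600). The cause of these moves was not tested.

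The median of all genes with LPS in WT was -0.46, and -0.09 with TMM factors, -0.03 with quantile normalization and -0.79 with a common total. These signs turned. Between untreated genotypes, Mapkapk2 was -0.05 with a common total, and with a sample left out Dusp2 ran from -0.10 to 0.36 and Mapkapk2 from -0.02 to 0.08. Between LPS genotypes, Map2k3 ran from -0.07 to 0.56. With LPS in WT, Dusp6 was 0.47 with TMM factors, 0.46 with quantile normalization and 0.21 with sample weights, Dusp16 was -0.09 at a pseudocount of 0.1 and -0.07 with a common total, Mapkapk2 was -0.19 with a common total, and with a sample left out the ranges were -0.48 to 0.43 for Dusp6, -0.24 to 0.32 for Dusp16 and -0.24 to 0.39 for Mapkapk2. For the difference of LPS effects, Dusp4 was -0.08 at a pseudocount of 5, -0.32 with TMM factors and -0.33 with quantile normalization (-0.30 to 0.28 with a sample left out), Gadd45b was -0.34, -0.20 and -0.29 with TMM factors, quantile normalization and sample weights (-0.25 to 0.33), and Map2k3 was 0.03 at a pseudocount of 0.1 and 0.17 with a common total (-0.44 to 0.19). A filter of 5 TPM removed Dusp16, and the 6-sample fits give no difference of LPS effects.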
